A study of Mus musculus with 6 samples.

Results

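The circRNAs described here are those of 3 genes of neuronal structure, Map1a, Lppr4 and Magi1. They were measured in the striatum of 3 HuD-OE mice and 3 wild type (WT) mice, with 1 mouse per array, on the Arraystar Mouse circRNA Array V2. Each circRNA has 1 probe, and of the 14236 circRNAs on the array, 4 were followed. They are mmu_circRNA_34414 of Map1a, mmu_circRNA_36029 of Lppr4, and mmu_circRNA_19425 and mmu_circRNA_40577 of Magi1. The first 3 stand in the deposited table of circRNAs that were higher in HuD-OE mice, so their difference between genotypes chose them and is given below as a description, without a test. The circRNAs of Map1a and Lppr4, which are named below by their gene alone, and Magi1 mmu_circRNA_40577 stand in the table of circRNAs bound by HuD in an RNA immunoprecipitation, which does not rest on these arrays. Magi1 mmu_circRNA_40577 was therefore not taken from the table of higher circRNAs, although its gene was chosen for the difference of Magi1 mmu_circRNA_19425. The immunoprecipitation itself set HuD-OE against WT tissue, and the choice was made with earlier results of these data known.

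All mice were adult males of the strain labelled C57BL6, and the transgenic line had been backcrossed to C57BL/6J. The HuD-OE mice carry a transgene of myc-tagged HuD driven by the Camk2a promoter, which is active in neurons of the forebrain, and the WT mice are littermates that do not carry it. Total RNA from both genotypes was treated with RNAse R, which degrades RNA with free ends and leaves closed circles. No probe could be paired with Elavl4, the gene of HuD, so the arrays give no check of the transgene. In tissue RNA, a lower share of the cells that express a circRNA and less of the circRNA in each cell cannot be told apart.

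HuD is a neuronal RNA-binding protein that recognizes U-rich and AU-rich stretches and is known for stabilizing mRNAs that act in neuronal differentiation and plasticity. A circRNA forms when the end of an exon is spliced back to the start of the same or an earlier exon, and the sequence across this back-splice junction distinguishes the circle from the linear mRNA of its gene. The 3 host genes act in the architecture of neurons. Map1a encodes a microtubule-associated protein of mature dendrites and axons. Lppr4, now named Plppr4 and also known as PRG-1, encodes a membrane protein of the postsynaptic side of glutamatergic synapses that is related to the lipid phosphate phosphatases. Magi1 encodes a scaffold protein of the membrane-associated guanylate kinase family, with PDZ and WW domains, which assembles complexes at cell junctions and synapses.

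The deposited annotation gives 60 bases across the junction of each circRNA, which are shown because they identify the molecule that each probe reports. In the sequence of Map1a, capitals mark a match to the seed of a miRNA described below. In the 2 sequences of Magi1, capitals mark the longest run of bases that both share, 8 in length, and the sequence of Lppr4 has no capitals. That run recurs at overlapping positions in the sequence of mmu_circRNA_19425, where only the first is marked.
mmu_circRNA_34414 of Map1a: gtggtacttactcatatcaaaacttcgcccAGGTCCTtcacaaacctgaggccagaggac
mmu_circRNA_36029 of Lppr4: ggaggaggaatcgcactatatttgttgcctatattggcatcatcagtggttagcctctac
mmu_circRNA_19425 of Magi1: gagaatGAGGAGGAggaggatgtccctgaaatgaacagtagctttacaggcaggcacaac
mmu_circRNA_40577 of Magi1: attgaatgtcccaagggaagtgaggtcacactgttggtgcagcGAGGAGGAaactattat
The position of the back-splice within the 60 bases differs between circRNAs of the tables and was not recovered for these 4. Of 42 pairs of exonic circRNAs in the tables that start or end at the same base, 41 shared a run of at least 10 bases on the side that a sense orientation requires, so the sequences are read as the sense strand.

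The circRNA of Map1a is exonic on the plus strand of chromosome 2, from 121298597 to 121299046, a span of 450 bases. The Lppr4 circRNA is exonic on the minus strand of chromosome 3, from 117325790 to 117335591, and spans 9802 bases. Both Magi1 circRNAs lie on the minus strand of chromosome 6. Magi1 mmu_circRNA_40577 is exonic and spans 47120 bases, from 93745434 to 93792553. Magi1 mmu_circRNA_19425 spans 23483 bases, from 93792346 to 93815828, and is classed as sense overlapping, which means that it comes from the strand and locus of the gene but is classed as neither exonic nor intronic. The 2 Magi1 spans share only the 208 bases from 93792346 to 93792553, at the downstream end of mmu_circRNA_19425 and the upstream end of mmu_circRNA_40577 in the direction of transcription. The tables do not name a build for the positions. All 4 spans lie inside their gene in the RefSeq annotation of GRCm38.p6, as do 686 of the 689 spans in the tables whose gene symbol it holds.

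The junctions held 45% to 50% G and C, against a median of 45% over the 726 junctions of the tables. T made up 31.7% of the junction of Lppr4 and 15% of that of Magi1 mmu_circRNA_19425, with a median of 23.3% over all junctions. Of an AU-rich and a U-rich motif, neither ATTTA nor TTTTT occurred in any of the 4 junctions, on either strand. The U-rich TTTGTTG, picked after the sequences were seen, occurred on the sense strand of the Lppr4 junction alone among the 4, in 0.413% of the 726 junctions on that strand, and in 1.38% on either strand. On the sense strand, ATTTA occurred in 4.68% and TTTTT in 3.31% of all junctions, and on either strand in 7.85% and 11.8%. These windows cover only 60 bases of each circle.

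For each of the 3 circRNAs in the table of higher circRNAs, the deposited annotation names 5 miRNAs with predicted sites, 15 different miRNAs in all, and all 15 were found in RefSeq. No seed, bases 2 to 8 of the mature miRNA, was shared by any of them, although miR-6960-5p of Map1a and miR-6381 of Magi1 mmu_circRNA_19425 share the bases from 2 to 7. Only 1 of the 15 had a match to its seed in the junction of its own circRNA, miR-6962-5p in that of Map1a. It is shown here with the seed in capitals, beside the pair that share most of a seed.
miR-6962-5p: aAGGACCUggugggagaucu
miR-6960-5p: cAGGAUGAgaagaguuuggcug
miR-6381: cAGGAUGCuggugacaugagu
The letters AGGTCCT, which pair with the seed of miR-6962-5p, occurred on the sense strand of 7 of the 726 junctions, or 0.964%, and on either strand of 2.34%. For the other 14 miRNAs, no match to all 7 bases of the seed was found in the junction of their own circRNA.

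Array brightness differed between samples before scaling. The median processed intensity, the brightness of a spot after background correction, was between 30.4 and 49.5 on 5 arrays and 12.6 on that of WT 3. On the array of WT 3, 60.3% of circRNA probes were well above background, against 87.2% to 95.7% on the others. WT 3 was scanned apart from the other 5 arrays. By the position of their spots, WT 2 and WT 3 lay in the second row of a slide, while WT 1 and all 3 HuD-OE arrays lay in the first. Whether WT 3 was on the same slide as the others was not read. The row of the slide below means this row position only. Levels are given below as log2 of the processed intensity minus the 75th percentile of the array, so a level of 0 equals that percentile. All 4 probes were well above background on all 6 arrays, and none of their spots was marked as an outlier.

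The Map1a circRNA gave processed intensities of 6499, 3824 and 2935 in HuD-OE 1, 2 and 3, and of 2075, 3283 and 391 in WT 1, 2 and 3. After scaling, its levels were 5.68, 5.62 and 4.78 in HuD-OE mice, and 4.11, 4.69 and 3.17 in WT mice. All HuD-OE levels were above all WT levels, but HuD-OE 3 exceeded WT 2 by only 0.10 on the log2 scale. The HuD-OE mean was 5.36 ± 0.50 (SD, n = 3) and the WT mean 3.99 ± 0.77 (SD, n = 3), which differ 2.59-fold.

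The Lppr4 circRNA gave processed intensities of 525, 366 and 411 in HuD-OE 1, 2 and 3, and of 182, 268 and 11.1 in WT 1, 2 and 3. Its levels in HuD-OE mice lay close together, at 2.05, 2.23 and 1.95. In WT mice they were 0.59, 1.07 and -1.97, so the genotypes did not overlap and the lowest HuD-OE level was 0.88 above the highest WT level. WT 3 stood far below the other WT arrays, and its spot was 2.13 times as bright as its local background, against 13.5 times in WT 1 and 15.7 times in WT 2. The difference between the group means corresponds to 4.53-fold.

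Magi1 mmu_circRNA_19425 gave processed intensities of 3460, 1739 and 2169 in HuD-OE 1, 2 and 3, and of 850, 1306 and 56.2 in WT 1, 2 and 3. Its levels were 4.77, 4.48 and 4.35 in HuD-OE mice, and 2.82, 3.36 and 0.37 in WT mice. The genotypes were again separate, with 0.99 between the lowest HuD-OE and the highest WT level, and WT 3 again stood apart from the other WT arrays. The group means differed 5.10-fold.

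Magi1 mmu_circRNA_40577 gave processed intensities of 142, 41.8 and 139 in HuD-OE 1, 2 and 3, and of 114, 90.3 and 21.4 in WT 1, 2 and 3. Its levels were 0.16, -0.89 and 0.39 in HuD-OE mice and -0.07, -0.49 and -1.02 in WT mice. The genotypes overlapped, since HuD-OE 2 was below WT 1 and WT 2. The HuD-OE mean was -0.11 ± 0.68 (SD, n = 3) and the WT mean -0.53 ± 0.48 (SD, n = 3).

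**Figure D1:**
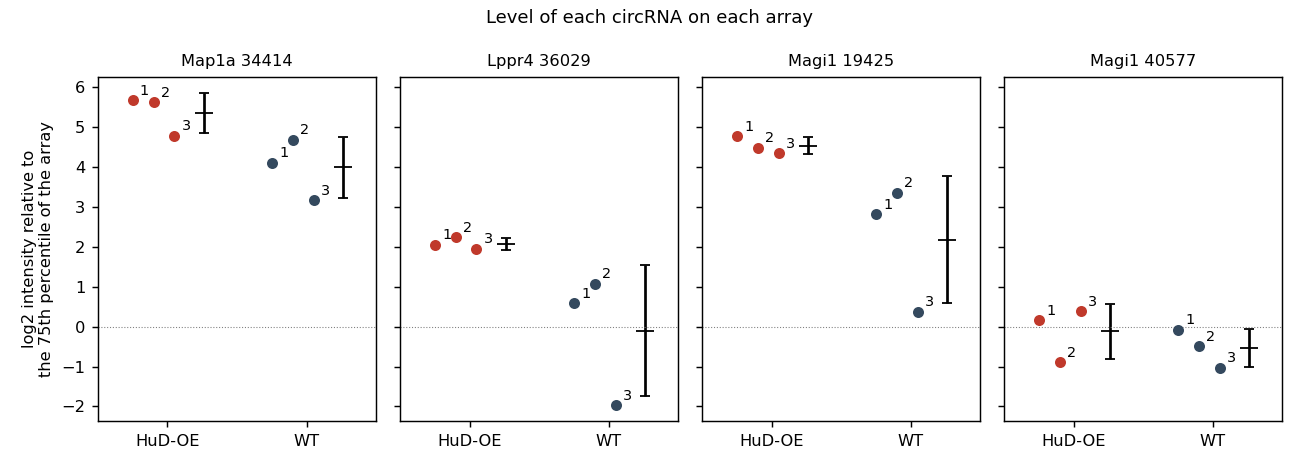
Level of the 4 circRNAs on each array, as log2 intensity relative to the 75th percentile of the array (vertical axis), in HuD-OE (red) and WT mice (blue). Points are single arrays, numbered by replicate, and bars show the mean and SD of 3 arrays. The HuD-OE points lie above all WT points for Map1a, Lppr4 and Magi1 mmu_circRNA_19425 but not for Magi1 mmu_circRNA_40577, and WT 3 is the lowest point in every panel.

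A linear model over all probes (limma) put Map1a at a log2 fold change, HuD-OE over WT, of 1.37 (standard error 0.48). It put Lppr4 at 2.18 (0.73) and Magi1 mmu_circRNA_19425 at 2.35 (0.72). These 3 circRNAs passed both limits of the study, 1.5-fold and 0.05 for the unadjusted p, which 2.51% of the 13451 tested probes did in the direction of HuD-OE and 0.483% in that of WT. In 7.36% of tested probes all HuD-OE levels were above all WT levels, and in 1.88% all were below. Under the methods' t-test and with the row of the slide as a block, none of the 3 passed both limits. Since this contrast chose the 3 circRNAs, nothing is read from these counts. No probe of the array passed an adjusted p of 0.05 by limma or by the methods' t-test, with 403 and 396 probes at an unadjusted p under 0.05. In the deposited table, the authors' mean log2 normalized intensity of Map1a was 12.71 for HuD-OE against 10.46 for WT mice, that of Lppr4 was 8.91 against 7.09, and that of Magi1 mmu_circRNA_19425 was 11.74 against 8.87.

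Magi1 mmu_circRNA_40577, which was not taken from the table of higher circRNAs, had an estimate of 0.42 (standard error 0.46) for the log2 fold change. Its 95% confidence interval ran from -0.64 to 1.47, and the adjusted p was 0.867 (limma, Benjamini-Hochberg over all tested probes). An exact two-sided permutation test over the 6 samples gave p = 0.40, where 3 against 3 samples cannot go below 0.10. The interval includes no change and a change of the size seen for Map1a, so a difference between genotypes was not detected for this circRNA with 3 arrays each, and its absence is not shown.

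WT 3 lowered the WT means of all 4 circRNAs. Its level minus the mean of WT 1 and WT 2 was -1.23 for Map1a, -2.80 for Lppr4, -2.72 for Magi1 mmu_circRNA_19425 and -0.74 for Magi1 mmu_circRNA_40577. Over all tested probes, this difference had a median of -0.47, with quartiles of -1.20 and 0.38. Without WT 3, which leaves the arrays of 1 scan, the estimates were 0.96 (standard error 0.40) for Map1a, 1.24 (0.31) for Lppr4, 1.44 (0.32) for Magi1 mmu_circRNA_19425 and 0.17 (0.45) for Magi1 mmu_circRNA_40577. The first 3 thus kept their direction in that scan with smaller differences. With the row of the slide as a block, where only WT 1 shares a row with HuD-OE arrays, the values were 1.25, 1.48 and 1.71 for the same 3, and that of Magi1 mmu_circRNA_40577 turned to -0.041.

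The way of scaling mattered most for Map1a. Quantile normalization gave Map1a a log2 fold change of 2.09 (standard error 0.58), against 1.37 with the 75th percentile. The value of Lppr4 barely moved under quantile normalization, to 2.19, but fell to 1.34 (standard error 0.31) with normexp background correction, which adds an offset of 50 to every spot. Magi1 mmu_circRNA_19425 ranged from 1.44 to 2.94 over 18 alternative settings. In none of these settings did the direction of Map1a, Lppr4 or Magi1 mmu_circRNA_19425 change. They were chosen by this contrast, so which settings kept them past both limits is a description from which nothing is read. Beyond the methods' t-test and the row block, Map1a did not pass with the trended robust fit, without HuD-OE 1 or without HuD-OE 2, and Lppr4 did not pass without HuD-OE 2.

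**Figure D2:**
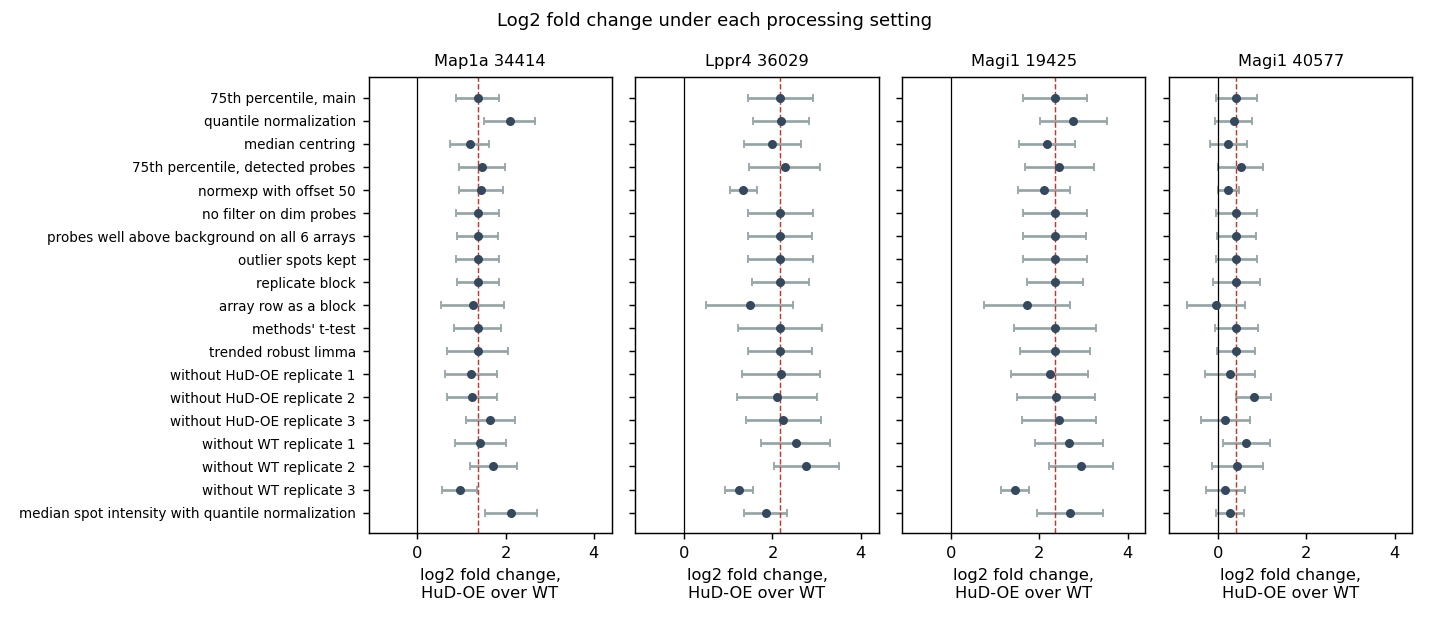
Log2 fold change of HuD-OE over WT (horizontal axis) for each circRNA under the main setting and 18 alternatives (vertical axis). Points are estimates and bars their standard errors, the black line marks 0 and the dashed red line the main value. The smallest values of Map1a, Lppr4 and Magi1 mmu_circRNA_19425, 0.96, 1.24 and 1.44, were those without WT 3, and Magi1 mmu_circRNA_40577 ranged from -0.041 with the row as a block to 0.81 without HuD-OE 2.

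The comparison of the 2 Magi1 circRNAs on the same array does not depend on how the array was scaled by a constant, since any such factor cancels in their ratio. On the HuD-OE arrays 1, 2 and 3 the log2 ratio of mmu_circRNA_19425 to mmu_circRNA_40577 had values of 4.60, 5.38 and 3.96, and on the WT arrays 1, 2 and 3 it had values of 2.89, 3.85 and 1.40. All HuD-OE ratios were above all WT ratios, although HuD-OE 3 exceeded WT 2 by only 0.11. The mean HuD-OE ratio was 4.65 ± 0.71 (SD, n = 3) and the mean WT ratio 2.71 ± 1.24 (SD, n = 3), which differ by 1.93 (standard error 0.82). Without WT 3 the difference was 1.27, and without HuD-OE 2, where mmu_circRNA_40577 was lowest among HuD-OE mice, it was 1.57. The ratio is a description and carries no test, because the difference of mmu_circRNA_19425 chose the pair, and it does not tell which of the 2 circRNAs differed.

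A different picture came from 2 circRNAs of different genes. For Magi1 mmu_circRNA_19425 over Lppr4, the log2 ratios on the HuD-OE arrays 1, 2 and 3 were 2.72, 2.25 and 2.40, and those on the WT arrays 1, 2 and 3 were 2.23, 2.29 and 2.34. It thus varied by 0.49 over the 6 arrays, while the levels ranged over 4.4 for Magi1 mmu_circRNA_19425 and 4.21 for Lppr4. For Map1a over Magi1 mmu_circRNA_19425 they varied more, with 0.91, 1.14 and 0.44 on the HuD-OE arrays and 1.29, 1.33 and 2.80 on the WT arrays. Since Magi1 mmu_circRNA_19425, Lppr4 and Map1a were chosen as higher in the same mice, some of this likeness follows from the choice.

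**Figure D3:**
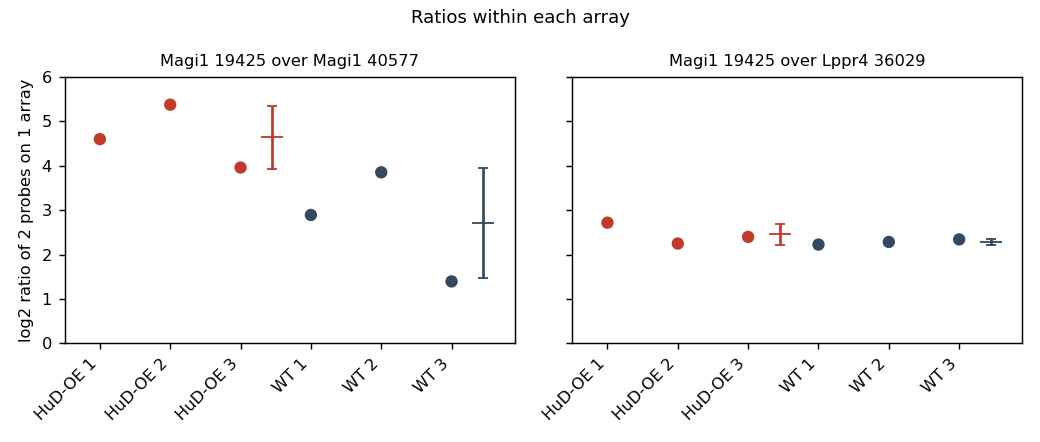
Log2 ratio of 2 probes on the same array (vertical axis) for each HuD-OE (red) and WT array (blue), with the group mean and SD beside the points. The ratio of the 2 Magi1 circRNAs ranged from 1.40 to 5.38 and was higher on every HuD-OE array than on any WT array, whereas that of Magi1 mmu_circRNA_19425 to Lppr4 stayed between 2.23 and 2.72.

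The circRNAs whose levels followed each of the 4 most closely were sought among 538 other probes that had a gene name and were well above background on all arrays. Likeness was measured by Pearson's r over the 6 arrays, which share their scaling, and is a description only. For Lppr4 these were Igsf11 mmu_circRNA_29710, of a synaptic adhesion protein (r = 0.999), Ctnnd1 mmu_circRNA_34004, of the catenin p120 (0.995), and Atp2b3 mmu_circRNA_45516, of a calcium pump of the plasma membrane (0.995). For Magi1 mmu_circRNA_19425 they were Ythdf3 mmu_circRNA_35121, of a reader of methylated adenosine in RNA (0.997), Igsf11 mmu_circRNA_29710 again (0.997) and Spag1 mmu_circRNA_28448 (0.995). The Map1a circRNA was followed by Zfp426 mmu_circRNA_43813 (0.981), Cecr2 mmu_circRNA_40903 (0.971) and Ezh2 mmu_circRNA_40229, of the polycomb methyltransferase (0.970). The circRNAs closest to Magi1 mmu_circRNA_40577 were different ones, Faxc mmu_circRNA_36543 (0.997), Klhl2 mmu_circRNA_016108 (0.995) and Nrxn2 mmu_circRNA_005661, of a presynaptic adhesion protein (0.995). Some of the named circRNAs come from the table of higher circRNAs, which was made from the same mice, so part of their likeness to Map1a, Lppr4 and Magi1 mmu_circRNA_19425 follows from that choice.

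To place the circRNA of Map1a among those of its pathway, 26 HuD-bound circRNAs of 20 other genes of microtubules and their motors were examined. None was past both limits in either direction, where 2.51% of all tested probes were higher and 0.483% lower. Of the 657 tested bound circRNAs, 11 were past both limits and higher, and 0 lower. None of the list had an unadjusted p under 0.05 by limma or the methods' t-test. The estimates were above 0 for 21 of 26, with a median of 0.30, against 0.15 over all tested probes and 0.27 over the 657 tested circRNAs of the table of HuD-bound circRNAs. Without WT 3 the medians of the list and of all tested probes were -0.12 and -0.01, so the direction of the list was not kept. They were 0.80 and 0.20 without HuD-OE 2, 0.55 and 0.27 without WT 1, and -0.26 and -0.02 with the row of the slide as a block. The median of the list therefore ranged from -0.12 to 0.80 depending on the array left out. Without HuD-OE 2, 3 of the 26 were past both limits and higher, against 2.7% of all probes tested in that setting, and without WT 1, 1 was, against 5.8%. Nudc mmu_circRNA_37766 was past both limits and lower without WT 1, with normexp, and with the median spot intensity and quantile normalization, at -1.20, -0.71 and -0.61. In those settings 5.25%, 2.23% and 0.996% of all tested probes were lower. The largest differences were those of Katnal1 mmu_circRNA_39707, of a subunit related to the microtubule-severing katanin, with 1.05 (standard error 0.60), Nudc mmu_circRNA_37766, of a dynein cofactor, with -0.87 (0.49), Kif5c mmu_circRNA_33527, of a kinesin motor, with 0.84 (0.95), and Dynll2 mmu_circRNA_24050, of a dynein light chain, with 0.66 (0.83). Without WT 3 these estimates were 0.38, -0.38, -0.40 and 0.04, in the same order, so the sign of Kif5c mmu_circRNA_33527 turned. Katnal1 mmu_circRNA_39707 had levels of -1.25, -1.46 and -0.80 in HuD-OE mice and -1.22, -1.87 and -3.56 in WT mice. Its genotypes overlapped and WT 3 stood apart. In Nudc mmu_circRNA_37766 the order was turned, with levels of 1.23, 1.37 and 0.82 in HuD-OE mice and 1.34, 1.69 and 3.00 in WT mice. In 1 of the 26, Mark1 mmu_circRNA_21491, of a kinase that acts on microtubule-associated proteins, all HuD-OE levels were above all WT levels, with an estimate of 0.56 (0.40). Such separation was found in 7.36% of all tested probes. Mark1 mmu_circRNA_21491 had levels of -1.30, -1.29 and -0.99 in HuD-OE mice and -1.34, -1.50 and -2.42 in WT mice. Without WT 3 its estimate was 0.23. Both circRNAs of Map2, which encodes another microtubule-associated protein, were close to 0, at 0.03 (0.39) and 0.11 (0.45). Mark1, Map2 and, below, Dlg4 were singled out after their values were seen.

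The scaffold proteins of synapses, to which Magi1 belongs, were represented by 31 HuD-bound circRNAs of 20 other genes. Again none was past both limits in either direction or had an unadjusted p under 0.05 by limma or the methods' t-test, and the genotypes overlapped for all 31. Over all tested probes the shares were 2.51% higher and 0.483% lower past both limits, and 7.36% and 1.88% with all HuD-OE levels above or below all WT levels. Of the 657 tested bound circRNAs, 11 were past both limits and higher, and 0 lower. The median was 0.12, against 0.15 over all tested probes and 0.27 over the 657 bound circRNAs, with 19 of 31 above 0. When an array was left out it ranged from -0.08 without WT 3 to 0.56 without HuD-OE 2, where the medians of all tested probes were -0.01 and 0.20. It was 0.33 without WT 1 and below 0 without HuD-OE 1, without HuD-OE 3, with median centring and with the row block, at -0.06, -0.02, -0.06 and -0.19. Without HuD-OE 2, 2 of the 31 were past both limits and higher, against 2.7% of all probes tested there. Without WT 1, Dlg1 mmu_circRNA_017645 was higher, at 1.58, and Anks1b mmu_circRNA_005340 lower, at -1.63, where 5.8% of all tested probes were higher and 5.25% lower. The 4 largest differences were those of Anks1b mmu_circRNA_005340, with -1.11 (standard error 0.68), Dlg1 mmu_circRNA_017645, with 1.03 (0.63), Anks1b mmu_circRNA_010003, with -0.78 (0.73), and Anks1b mmu_circRNA_002573, with -0.76 (0.86). Without WT 3 these estimates were -0.38, 0.43, 0.10 and -1.02, in the same order, so the sign of Anks1b mmu_circRNA_010003 turned. Anks1b encodes a protein of the postsynaptic density, and Dlg1 encodes SAP97, like Magi1 a membrane-associated guanylate kinase. Dlg1 mmu_circRNA_017645 had levels of 0.15, -0.65 and 0.80 in HuD-OE mice and 0.15, -0.82 and -2.13 in WT mice. Anks1b mmu_circRNA_005340 ran the other way on the array of WT 3, with 3.93, 2.48 and 3.31 in HuD-OE mice and 3.29, 3.94 and 5.80 in WT mice. For the circRNA of Dlg4, which encodes PSD-95, the estimate was -0.09 (0.67). No other gene of the lipid phosphatase-related list, to which Lppr4 belongs, had a bound circRNA in the table.

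**Figure D4:**
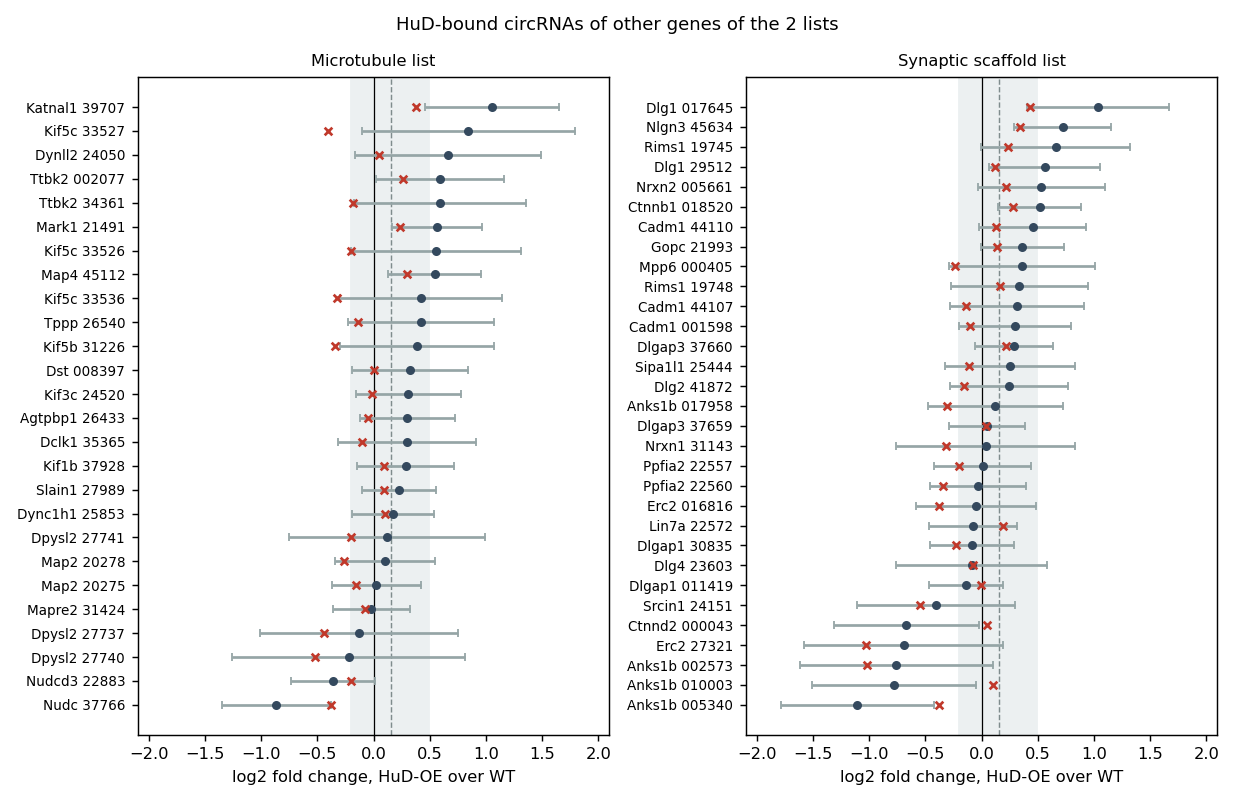
Log2 fold change of HuD-OE over WT (horizontal axis) for 26 HuD-bound circRNAs of microtubule genes and 31 of synaptic scaffold genes (vertical axis), with Map1a and Magi1 left out. Points and bars are estimates and standard errors, red crosses the estimate without WT 3, the grey band and dashed line the quartiles and median of all tested probes. No circRNA of either list was past both limits, and for all 21 and 19 circRNAs with an estimate above 0 the cross lies to the left of the point.

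CircRNAs of genes that mark cell types were looked at in the same fit. Their probes were paired through the table of bound circRNAs and the deposited tables of higher and lower circRNAs. The deposited tables were made from these same mice, so some of the markers may have been chosen by this contrast. For striatal projection neurons, 9 circRNAs of 5 genes (Arpp21, Bcl11b, Foxp1, Rgs7bp and Pde7b) had log2 fold changes from -0.07 to 1.23, with a median of 0.61 that was 0.04 without WT 3. Of these, 7 were well above background on all arrays. The mean level of all 9 lay between -0.23 and 0.70 in HuD-OE mice and between -0.91 and 0.46 in WT mice, lowest in WT 3. For neurons in general, 7 circRNAs of 5 genes had a median of 0.17, or -0.19 without WT 3, and mean levels between -0.79 and 1.05 in HuD-OE and between -0.59 and 0.96 in WT mice. For astrocytes, both circRNAs, of Slc1a2 and Slc6a11, were well above background on all arrays and had log2 fold changes of -0.26 and -0.09. Their mean level lay between -0.31 and 1.82 in HuD-OE mice and between 1.19 and 1.36 in WT mice, with 1.19 in WT 3. None of the 18 was past both limits, against 2.51% higher and 0.483% lower of all tested probes. The tables paired no probe with the marker genes of oligodendrocytes or microglia. The part of cell composition in the differences of Map1a, Lppr4 and Magi1 mmu_circRNA_19425 was not tested.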

How the data were processed

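RNA from the striatum of 3 HuD-OE mice and of 3 WT mice was read in 1 color, 1 array per mouse. The authors deposited the spot intensity on a linear scale and the background-corrected processed intensity from Feature Extraction 11.0.1.1, not scaled between arrays. They also deposited tables of higher and lower circRNAs, with fold changes and p-values of their own comparison, which were not used, and mean log2 normalized intensities per genotype, whose normalization is not given in the sources used here. A further 24 columns with values of single samples were left out. Gene names, positions and junctions came from these tables and the supplementary table of bound circRNAs, and miRNA sequences from RefSeq (GRCm38.p6).

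The log2 processed intensity was scaled by subtracting the 75th percentile over the non-control spots on that array, and outlier spots were set aside. Probes that reached well above background on 3 or more arrays were tested (13451). The two-sided test came from lmFit and eBayes (limma 3.58.1, R 4.3.3), with no block. The limits of 1.5-fold and an unadjusted p of 0.05 are the study's. The alternatives were other scalings, background corrections and filters, the replicate number and the row of the slide as blocks, the methods' t-test, a trended robust fit, and each array left out in turn, with 1 more added after the data had been seen. The fit was tested on simulated data. Matplotlib 3.10.9 under Python 3.11.15 drew the figures. Named were the 4 circRNAs, of each list the 4 with the largest absolute log2 fold change, as none was past both limits, and the 3 probes most like each circRNA. The 4 circRNAs, the gene lists and the rule were chosen with earlier results of these data known. An array has no read depth, so precision is limited by the 3 arrays of each genotype.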

Additional observations from a re-analysis of the deposited data

How the results depend on the processing

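The log2 fold change of the Map1a circRNA was 2.09 with quantile normalization and 2.13 with the median spot intensity and quantile normalization, a setting added after the data had been seen. That of Magi1 mmu_circRNA_40577 turned to -0.041 with the row of the slide as a block and passed both limits in no setting. The count of higher circRNAs, 338 in the main setting, was 130 with normexp, 131 among probes well above background on every array, 74 under the row block, 225 in the added setting, and from 179 without HuD-OE 3 to 776 without WT 1. The number of lower circRNAs, 65 in the main setting, was 110 with quantile normalization, 300 with normexp, 17 with the row as a block, 20 with the methods' t-test, 39 with the trended robust fit, 134 in the added setting, and from 4 without HuD-OE 3 to 703 without WT 1. Counts of list circRNAs that were higher ranged from 0 to 3 for microtubules and from 0 to 2 for synaptic scaffolds when an array was left out, with both highest counts without HuD-OE 2. Lower list circRNAs were Nudc mmu_circRNA_37766 with normexp, in the added setting and without WT 1, and Anks1b mmu_circRNA_005340 without WT 1. The causes were not tested. Same-numbered arrays of the genotypes did not deviate together, with correlations of -0.16, -0.20 and -0.56 over 13353 probes. Technical differences between arrays enter these correlations, so they cannot decide whether the numbers pair the mice. With the replicate block, 191 circRNAs were higher, and the log2 fold changes of the 4 circRNAs are by construction those without it. The difference between the 2 Magi1 circRNAs lay between 1.27 and 2.50 in all 18 alternatives.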

Other observations

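Without HuD-OE 2, on whose array many list circRNAs were lowest among HuD-OE mice, 3 circRNAs of the microtubule list were past both limits and higher in HuD-OE mice, Dpysl2 mmu_circRNA_27741, Dpysl2 mmu_circRNA_27740 and Ttbk2 mmu_circRNA_002077, with log2 fold changes of 1.24, 1.15 and 1.17. In the scaffold list Rims1 mmu_circRNA_19745 and Rims1 mmu_circRNA_19748 were, with 1.36 and 1.02. In that setting 2.7% of all tested probes were past both limits and higher, and nothing is read from the counts of the lists. Dpysl2 encodes CRMP2, a tubulin-binding protein of axon growth, Ttbk2 a tau tubulin kinase, and Rims1 a protein of the presynaptic active zone. The adjusted p of all 5 was 0.635 (limma, Benjamini-Hochberg over all tested probes). Dpysl2 mmu_circRNA_27740 had levels of 2.88, -1.38 and 2.62 in HuD-OE mice and 1.98, 1.81 and 1.00 in WT mice, so HuD-OE 2 was below every other array. These circRNAs were singled out after their values were seen.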
